A study of Mus musculus with 4 samples.

Results

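The genes described here are 10 genes known from the Sertoli cell, the somatic cell that surrounds and feeds the germ cells of the testis. Some of them are made in other cells too, so a difference in whole tissue is not tied to Sertoli cells. The 10 are the transcription factors Sox9, Sox8, Wt1, Dmrt1, Gata1, Gata4 and Gata6, the GATA cofactor Zfpm2, the hormone gene Amh and the hormone receptor gene Fshr. They were taken by symbol from the array annotation, and every probe set with a single symbol among these 10 was kept, which gave 16 probe sets (a probe set is the group of probes that measures a transcript). The array annotation names 18193 genes in all. The treated group was testis tissue of strain 129 mice, 2 days post partum, held for 24 h in organ culture with WIN 18,446 at 1 µM (2 arrays). The vehicle group was tissue of the same strain and age cultured for the same time with dimethyl sulfoxide (2 arrays), and the medium of both groups held 10% fetal bovine serum. WIN 18,446 is an inhibitor of the retinaldehyde dehydrogenases, which make retinoic acid from retinaldehyde. Total RNA was amplified to cDNA and hybridised to Affymetrix Mouse Genome 430 2.0 microarrays. Nothing in the labels says that the samples of a group were independent animals or cultures, so a p-value here covers the spread among these arrays alone, and that spread may be technical.

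In the developing testis Sry switches on Sox9, and Sox9 with its close relative Sox8 then keeps the supporting cells on the Sertoli path. Sox9, Wt1, Gata4 and the nuclear receptor Nr5a1 act on the Amh promoter, and the secreted hormone (anti-Müllerian hormone) makes the Müllerian ducts of the male fetus regress. Amh stays high in immature Sertoli cells, which still divide after birth, and is shut down as they mature. Fshr, the receptor for follicle-stimulating hormone, is in the testis a Sertoli cell gene.

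Promoter sequence was given in the RefSeq table for 3 of the 10 genes, Sox8, Fshr and Gata1. Those of Sox8, which fell with WIN 18,446, and Fshr, which was not called, are shown because they hold matches to the motifs searched. The Gata1 stretch holds 0 matches to any of them and is not printed. Gata1 had the largest difference of the 10 genes and was not called. The 250 bases before the annotated start are printed 5′ to 3′ on the gene's strand, from assembly GRCm38.p6. Capitals mark the matches to the E-box CACGTG and to GATAA, the core that GATA factors bind.
Sox8 (chr17:25570687-25570936, minus strand): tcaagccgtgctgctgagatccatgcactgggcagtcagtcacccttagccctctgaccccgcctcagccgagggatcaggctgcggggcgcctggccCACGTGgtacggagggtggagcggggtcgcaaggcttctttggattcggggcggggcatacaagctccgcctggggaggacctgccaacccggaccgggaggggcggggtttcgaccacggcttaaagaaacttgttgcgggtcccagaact
Fshr (chr17:89200676-89200925, minus strand): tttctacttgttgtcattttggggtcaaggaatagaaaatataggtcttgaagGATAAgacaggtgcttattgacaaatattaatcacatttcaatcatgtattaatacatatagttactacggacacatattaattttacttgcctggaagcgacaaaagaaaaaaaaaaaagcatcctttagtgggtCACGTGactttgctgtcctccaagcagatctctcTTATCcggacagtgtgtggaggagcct
The Sox8 stretch holds 1 E-box and 0 GATA matches, and the Fshr stretch 1 E-box and 2 GATA matches, of which the one nearer the start lies on the opposite strand. In the Fshr promoter the E-box is known, from work in the rat, as a binding site of the upstream stimulatory factors. Both strands were searched. The E-box is found in 6.02% and the GATA core in 22.6% of the 32851 promoter stretches of this length in the table. ACAAT (a SOX core, found in 27.7% of them), AAGGTCA (the NR5A1 site, in 4.08%) and AGGTCA, the retinoid receptor half-site contained in it (in 14.0%), have 0 matches in the Sox8 and Fshr stretches. A match is a description of letters and not a binding site.

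Levels are log2 values, as deposited, and differences are given as WIN 18,446 minus vehicle. Testing with limma covered the 20895 probe sets whose 4 levels averaged 5 or more, and a probe set with a Benjamini-Hochberg adjusted p under 0.05 over all of these is called. Of the 16 probe sets 13 passed this level filter, with at least 1 for each gene. The other 3 were further probe sets of genes that another one measured. The Gata6 probe set among them read at most 2.05 on every array, under the highest bacterial control (2.22). The Sox9 one read 2.24 and 2.27 with WIN 18,446 against 2.45 and 2.26 with vehicle, and that of Zfpm2 read 2.79 and 3.02 with WIN 18,446 against 3.02 and 3.51 with vehicle. The RNA was that of whole tissue, in which fewer cells of a type and less RNA per cell cannot be told apart.

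Across the 4 arrays the median level lay between 3.72 and 3.83, and 46.4% to 46.6% of probe sets reached 5. Pearson's r over tested probe sets, which are not independent replicates, was 0.985 between the WIN 18,446 arrays, 0.992 between the vehicle arrays and 0.964 to 0.976 between groups. Stra8, which retinoic acid induces in germ cells, read 2.03 and 2.04 with WIN 18,446 against 7.02 and 6.42 with vehicle. Of 25 structural and secreted products of Sertoli cells on the array 23 passed the level filter, among them clusterin (Clu), at 15.38 and 15.36 with WIN 18,446 against 15.33 and 15.28 with vehicle.

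Sox9, Sox8, Wt1 and Gata6 fell with WIN 18,446, by 1.5-fold to 2.2-fold, while Dmrt1 and Gata4 differed by under 0.2 log2 units and Amh read higher. Of the 13 tested probe sets 5 fell, from 4 genes, 0 rose and 8 were not called, where 5.18% of all tested probe sets were called and 2.91% were called lower. In 11 of the 13 the groups stood clear of each other, lower with WIN 18,446 in 10 and higher in 1, against 53.1% of all tested probe sets without overlap (29.3% lower and 23.8% higher). The median difference of the 13 was -0.58, and that of all tested probe sets was -0.02. Without the level filter, and without either vehicle array, limma called 0 of them, and without a variance trend it called 1, the brighter Sox9 probe set (adjusted p = 0.0455).

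**Figure D1:**
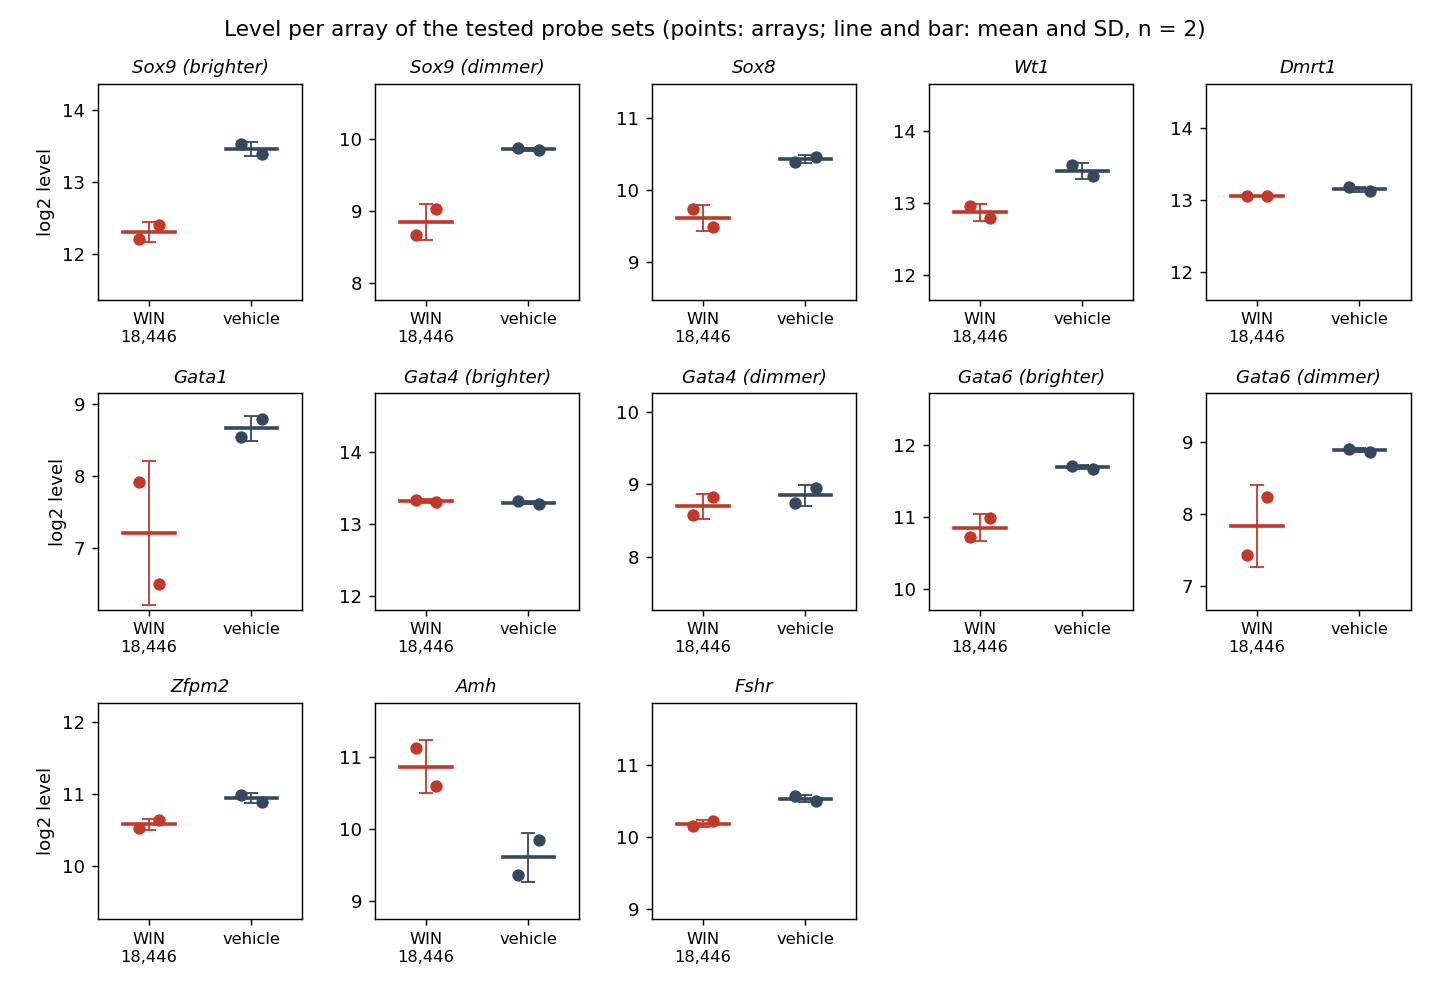
Log2 level on each array (points) with the group mean and SD (line and bar, n = 2) for the 13 tested probe sets, WIN 18,446 left and vehicle right; every panel spans the same 3 log2 units. The Sox9, Sox8, Wt1 and Gata6 points with WIN 18,446 lie below both vehicle points, the Amh points lie above them, and the Gata4 points overlap.

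Sox9, the factor that sets Sertoli fate, fell on both of its probe sets that could be tested. The brighter one read 12.21 and 12.41 on the WIN 18,446 arrays, against 13.53 and 13.40 on the vehicle arrays. Both treated arrays lay 0.98 log2 units or more below the lower vehicle array, while arrays of the same group differed by at most 0.20. The difference was -1.15 (SE 0.10, 95% interval -1.40 to -0.90), a 2.22-fold lower level, and limma gave an adjusted p of 0.0121. The dimmer probe set read 8.67 and 9.02 with WIN 18,446 against 9.87 and 9.84 with vehicle, again without overlap. Its difference of -1.01 (SE 0.17, adjusted p = 0.0432 in limma) lay within 0.14 log2 units of that of the brighter one, and its call was lost without WIN 18,446 array 1 (adjusted p = 0.069). Among all tested probe sets, 2.25% had a difference below that of the brighter Sox9 probe set.

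Sox8, the SoxE factor that backs up Sox9 in maintaining Sertoli cells, fell as well. It read 9.73 and 9.48 on the WIN 18,446 arrays against 10.39 and 10.46 on the vehicle arrays. The gap between the groups was 0.66 log2 units, and the widest gap within a group was 0.25. The difference was -0.82 (SE 0.14, 95% interval -1.18 to -0.45), or 1.76-fold lower (limma, adjusted p = 0.0435). The call was lost without WIN 18,446 array 1 (adjusted p = 0.0517) and without WIN 18,446 array 2 (adjusted p = 0.0617). The third SoxE gene, Sox10, is a neural crest factor and lay under the level filter, at 2.80 and 2.73 with WIN 18,446 against 4.75 and 3.98 with vehicle.

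Wt1, a zinc finger factor needed to form the gonad and to keep Sertoli cells in their fate, fell less. Its 1 probe set, of a kind whose probes can match more than 1 transcript, read 12.95 and 12.78 with WIN 18,446 against 13.52 and 13.37 with vehicle. No treated array reached a vehicle array, and the gap of 0.42 log2 units was wider than the 0.17 within the WIN 18,446 group. The difference was -0.58 (SE 0.09, 95% interval -0.81 to -0.34), or 1.49-fold lower, with an adjusted p of 0.0374 in limma. The call was lost without WIN 18,446 array 2 (adjusted p = 0.051).

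Dmrt1, the DM domain factor that holds Sertoli cells male after birth and is also made in germ cells, was not called. It read 13.05 on both WIN 18,446 arrays, against 13.17 and 13.12 on the vehicle arrays. Although the groups did not overlap, they lay only 0.06 log2 units apart, close to the 0.05 between the vehicle arrays. The difference was -0.09, with a 95% interval of -0.25 to 0.06 (limma, adjusted p = 0.454). That interval, which covers the spread among these arrays alone, does not reach the difference of Wt1.

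Of the 3 GATA factors, Gata6 was called and Gata4 and Gata1 were not. Gata4, which is needed for Sry and Amh expression, read 13.34 and 13.30 on its brighter probe set with WIN 18,446 against 13.31 and 13.28 with vehicle. The groups overlapped, and the difference of 0.02 had a 95% interval of -0.13 to 0.17 (limma, adjusted p = 0.858). With array medians set equal its sign flipped, at -0.015. The dimmer Gata4 probe set read 8.57 and 8.82 with WIN 18,446 against 8.75 and 8.95 with vehicle, also with overlap (difference -0.15, adjusted p = 0.686 in limma).

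Gata6, a relative of Gata4 that Sertoli cells and steroidogenic cells both make, fell on its brighter probe set. That one read 10.72 and 10.99 with WIN 18,446 against 11.71 and 11.67 with vehicle. The treated arrays lay at least 0.68 log2 units below the vehicle arrays and 0.27 apart from each other. The difference was -0.84 (SE 0.12, 95% interval -1.15 to -0.52), or 1.78-fold lower (limma, adjusted p = 0.0311). The dimmer probe set read 7.43 and 8.24 with WIN 18,446 against 8.90 and 8.86 with vehicle. It had the larger difference, -1.05, but the treated arrays lay 0.80 apart, and limma did not call it (adjusted p = 0.125). Without WIN 18,446 array 1 its difference was -0.65, against -0.70 for the brighter probe set, and without WIN 18,446 array 2 it was -1.45 and called (adjusted p = 0.0305).

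Gata1, the factor that runs red cell formation and is also made by Sertoli cells in the mouse, had the largest difference of the 10 genes and the widest spread. It read 7.91 and 6.51 on the WIN 18,446 arrays against 8.54 and 8.79 on the vehicle arrays. Both treated arrays were below both vehicle arrays, yet they differed from each other by 1.41 log2 units, more than the gap of 0.62 between the groups. The difference of -1.45 (SE 0.48, 95% interval -2.66 to -0.24) was not called (limma, adjusted p = 0.165). Without WIN 18,446 array 1 it was -2.16 and called (adjusted p = 0.0332), and without WIN 18,446 array 2 it was -0.75 (adjusted p = 0.111). Of the 3 erythroid markers on the array 1 was tested and 0 called. That gene, the beta-globin gene Hbb-b2, was at 8.62 and 9.45 with WIN 18,446 against 10.53 and 10.38 with vehicle (difference -1.42, adjusted p = 0.0618 in limma). Its other probe set lay at background, at 2.08 and 2.09 with WIN 18,446 against 2.11 and 2.09 with vehicle. The probe sets read for Hba-a1 and Alas2 also lay at background on all arrays. Only probe sets with a single symbol were read, so a level at background need not mean that the gene is silent. The summed linear level of the 3 markers, which is thus that of the brighter Hbb-b2 probe set, was 401 and 707 with WIN 18,446 against 1490 and 1337 with vehicle. Their part in the Gata1 difference was not tested.

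Zfpm2 (FOG2), which binds GATA4 and is needed with it for testis formation, was not called. It read 10.53 and 10.63 with WIN 18,446 against 10.99 and 10.89 with vehicle. The groups lay 0.26 log2 units apart, and arrays of a group differed by at most 0.11. The difference was -0.36, with a 95% interval of -0.64 to -0.09 before adjustment (limma, adjusted p = 0.141).

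**Figure D2:**
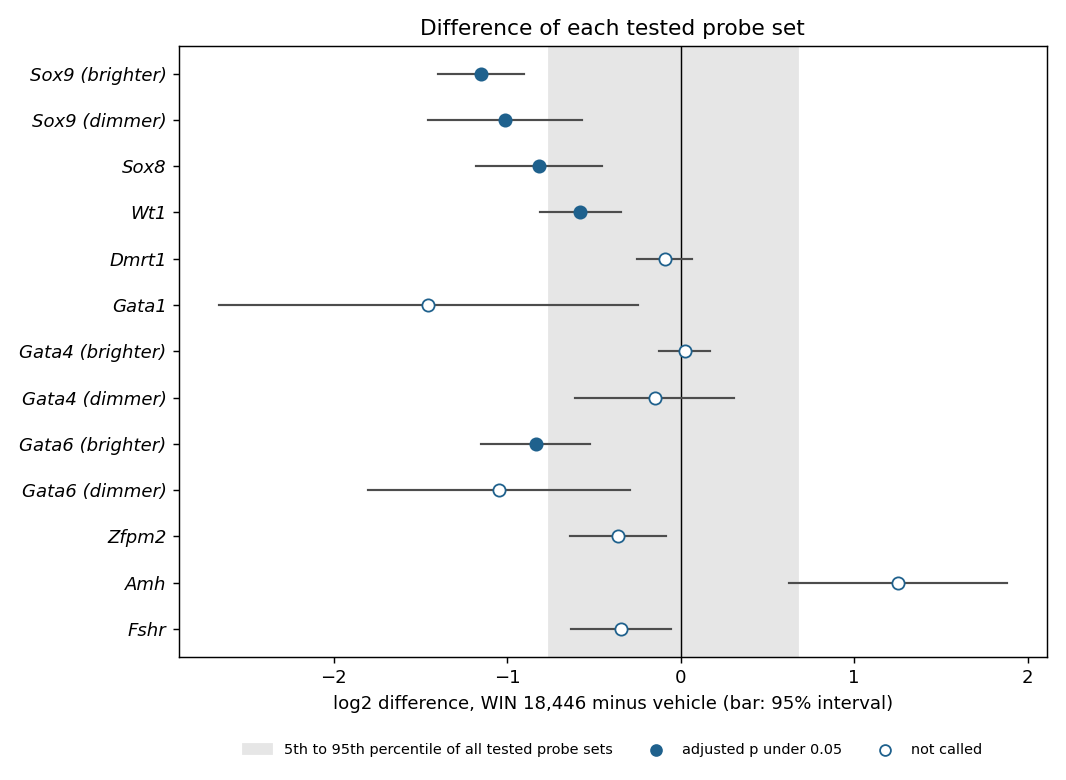
Log2 difference of each tested probe set, WIN 18,446 minus vehicle, with its 95% interval from limma; filled points have an adjusted p under 0.05, and the grey band runs from the 5th to the 95th percentile of all tested probe sets (-0.76 to 0.68). Sox9, Sox8 and Gata6 points lie at or beyond the lower edge of the band, Wt1 lies inside it, and Amh lies beyond the upper edge without being called.

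Amh was the 1 gene of the set whose groups stood apart in the upward direction. It read 11.12 and 10.60 on the WIN 18,446 arrays against 9.37 and 9.85 on the vehicle arrays. Both treated arrays lay at least 0.75 log2 units above the higher vehicle array, and arrays of a group differed by about 0.5 (0.52 with WIN 18,446 and 0.48 with vehicle). The difference was 1.25 (SE 0.25, 95% interval 0.63 to 1.88), or 2.39-fold, and 98.7% of all tested probe sets had a lower one. Limma did not call it (adjusted p = 0.0575). It was called in 7 of the 13 other settings of the analysis, among them robust moderation (adjusted p = 0.0465) and leaving out WIN 18,446 array 2 (adjusted p = 0.042), and its adjusted p ran from 0.0235 to 0.375 over all 13.

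Amh and Sox9 thus differed in opposite directions on the same arrays. The log2 ratio of their brightest probe sets, whose absolute value has no meaning because the probes differ, was -1.09 and -1.81 with WIN 18,446 against -4.16 and -3.55 with vehicle, a shift of 2.40. The same ratio of Amh to Wt1 shifted by 1.83 and that to Gata4 by 1.23. Each shift is the Amh difference minus that of the other gene, so it adds nothing to the differences of the single genes. Amh itself was not called, and no test was run on these shifts.

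Fshr, through which follicle-stimulating hormone drives Sertoli cell division and secretion, was not called. It read 10.14 and 10.21 with WIN 18,446 against 10.56 and 10.49 with vehicle. The groups were 0.27 log2 units apart, and arrays within each group were within 0.07 of each other. The difference was -0.34 with a 95% interval of -0.63 to -0.06 before adjustment (limma, adjusted p = 0.168).

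**Figure D3:**
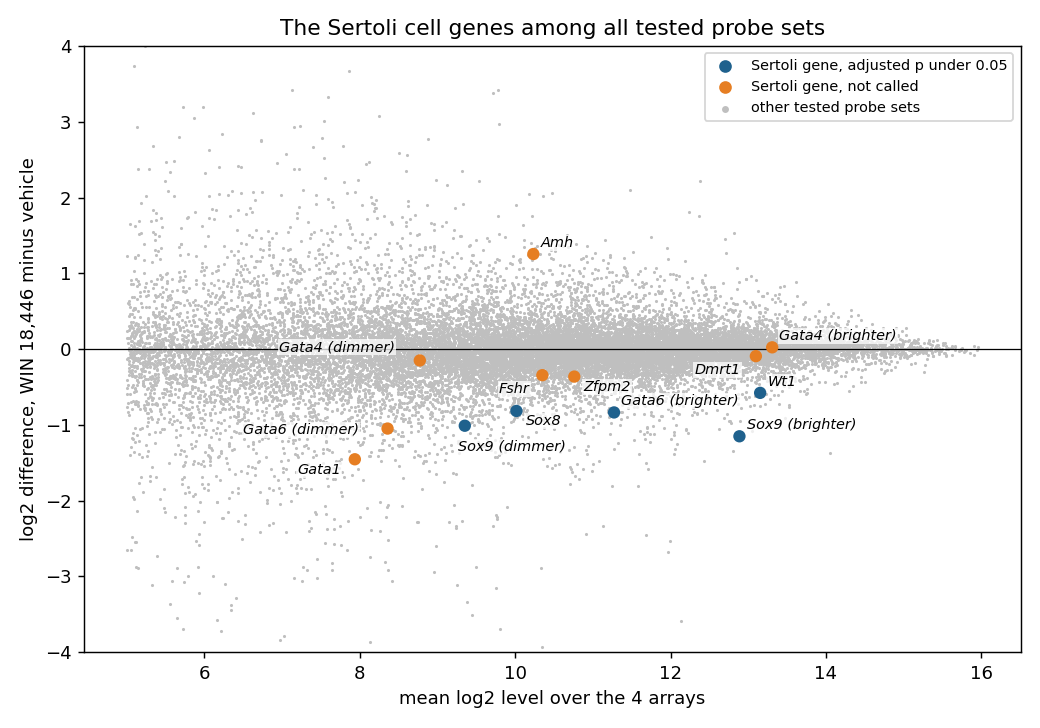
Log2 difference, WIN 18,446 minus vehicle, against the mean log2 level over the 4 arrays for all 20895 tested probe sets (grey) and the 13 of the Sertoli cell genes (blue where called, orange where not); 36 probe sets lie outside the plotted range. Sox9 at -1.15 and Wt1 at -0.58 lie low among probe sets of high level, and Gata4 and Dmrt1 lie close to 0.

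Profiles over the 4 arrays were compared by distance, which with 2 arrays a group mostly restates the difference between the groups. With each gene's values centred on its own mean over the 4 arrays, the genes nearest to Sox9 by Euclidean distance were Usp53 (distance 0.03 log2 units), Sgsm3 (0.04) and Fmod (0.06), the last encoding the matrix protein fibromodulin. Among the 10629 genes compared, Gata6 was at place 98 (distance 0.32), Sox8 at 278 (0.48) and Wt1 at 535 (0.63), and the median distance was 1.16. Of the genes not called, Zfpm2 was at place 1052, Fshr at 1170 and Dmrt1 at 3697, all nearer than the median, while Gata4 (place 5981, distance 1.19), Gata1 (6417, 1.21) and Amh (10463, 2.50) lay beyond it. The genes nearest to Amh were the histone gene H3f3b (0.16), the glycolytic enzyme gene Pfkp (0.16) and Zwilch (0.24), a kinetochore gene. These distances rest on 4 arrays in 2 groups and say nothing of shared control.

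The genes around these factors were mixed, and each gene is represented here by its brightest probe set. By that measure 6.4% of the 10970 genes tested were called, 2.94% higher and 3.46% lower, and the median difference was -0.02. Of 14 tested testis-determining and Amh-regulating genes, 3 fell, 2 rose and 9 were not called (median -0.09). Nr0b1, whose protein (DAX1) represses Nr5a1-driven transcription, Amh included, read 8.09 and 7.82 with WIN 18,446 against 11.68 and 11.62 with vehicle, far outside the spread within the groups (difference -3.69, adjusted p = 0.00387 in limma). Gadd45g, which acts upstream of Sry, read 10.54 and 10.45 with WIN 18,446 against 11.10 and 11.22 with vehicle, and it fell (difference -0.67, adjusted p = 0.0397). Dhh, the hedgehog ligand of Sertoli cells, read 13.12 and 13.10 with WIN 18,446 against 13.53 and 13.55 with vehicle (adjusted p = 0.0268), and its dimmer probe set was not called (difference -0.68, adjusted p = 0.226).

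Six4, a homeobox factor acting upstream of Sry, read 8.78 and 8.43 with WIN 18,446 against 7.47 and 7.32 with vehicle, and it rose by 1.21 log2 units (limma, adjusted p = 0.0421). Of the other 2 tested Six4 probe sets limma called 1 (difference 1.33, adjusted p = 0.0447) and not the other, much dimmer one (difference 1.22, adjusted p = 0.140). That dimmer one read 5.48 and 5.95 with WIN 18,446 against 4.10 and 4.89 with vehicle. It passed the level filter through the WIN 18,446 arrays alone. Sox3, a relative of Sry, read 8.52 and 8.55 with WIN 18,446 against 7.40 and 7.48 with vehicle, a rise of 1.09 (adjusted p = 0.0364). Nr5a1 itself read 12.25 and 12.28 with WIN 18,446 against 12.47 and 12.26 with vehicle, with overlap, and was not called (difference -0.10, adjusted p = 0.597). Sry lay near background in both groups, at 3.13 and 2.96 with WIN 18,446 against 2.98 and 2.95 with vehicle.

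Genes of the ovarian path, which the Sertoli factors hold down, were few. Of 12 on the list 6 were tested, 2 fell (Nr0b1, also counted above, and Wnt4), 0 rose and 4 were not called (median -0.38). Wnt4, a signal that opposes Sox9 in the fetal gonad, read 7.29 and 6.92 with WIN 18,446 against 9.64 and 9.62 with vehicle (difference -2.52, limma, adjusted p = 0.0109), and its second probe set was lower too (adjusted p = 0.0159). Fst, which encodes the activin-binding protein follistatin, read 8.67 and 9.06 with WIN 18,446 against 8.23 and 7.47 with vehicle, higher without overlap, and was not called (difference 1.01, adjusted p = 0.144). Foxl2, the factor that keeps ovarian supporting cells female, was at background: 2.01 and 2.10 with WIN 18,446 against 2.11 and 2.10 with vehicle.

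Of the structural and secreted products of Sertoli cells 23 were tested, 4 fell, 0 rose and 19 were not called (median -0.05). Without overlap 10 of the 23 were lower and 7 higher, where 29.3% of all tested probe sets were lower and 23.8% higher. Those shares are by probe set and not by gene. Espn, which encodes the actin bundler espin of Sertoli cell junctions, read 6.98 and 6.63 with WIN 18,446 against 8.68 and 8.80 with vehicle, without overlap and with at most 0.35 log2 units between arrays of a group (difference -1.94, limma, adjusted p = 0.0181). Cldn11, the tight junction claudin, read 11.45 on both WIN 18,446 arrays against 12.75 and 12.66 on the vehicle arrays (adjusted p = 0.00781). The secreted cystatins Cst12 and Cst9 fell too, with differences of -0.30 and -0.27 (adjusted p = 0.0322 and 0.048). Hsd17b1, which encodes a 17-beta-hydroxysteroid dehydrogenase, had the largest difference of the 23, in the other direction. It read 12.63 and 12.43 with WIN 18,446 against 9.83 and 11.05 with vehicle, 4.27-fold higher without overlap, and was not called (difference 2.09, adjusted p = 0.0519 in limma), the vehicle arrays lying 1.22 apart. Tsx (difference -2.02) and Rhox5 (difference -1.79) were lower without overlap and were not called either (limma, adjusted p = 0.0577 for each). The gap junction gene Gja1 was not called on its brightest probe set (difference 0.19, adjusted p = 0.230) but was called higher on a dimmer one (difference 0.37, adjusted p = 0.0432). Summed over the 25 genes on the array, the linear level was 341688 and 336232 with WIN 18,446 against 353810 and 350002 with vehicle.

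The receptor for the Amh product fell while Amh itself read higher. Amhr2, the type II receptor, read 13.17 and 12.90 on its brightest probe set with WIN 18,446 against 13.84 and 13.68 with vehicle, without overlap. The difference was -0.73 (SE 0.11, adjusted p = 0.0356 in limma), and the other 2 Amhr2 probe sets were also called lower (adjusted p = 0.0397 and 0.0451). Of 9 tested genes of Amh receptor signalling, Amhr2 fell, 0 rose and 8 were not called (median 0.19). Id1, a target of this type of signal, read 11.58 and 11.81 with WIN 18,446 against 10.81 and 11.24 with vehicle and was not called (adjusted p = 0.103). Of 12 tested genes of Fshr signalling 0 were called by limma (median -0.15). An unadjusted p under 0.05 in limma was found for 3 of these 12 genes. By probe set it was found for 4598 of all 20895 tested. In a limma fit with 1 probe set per gene it was found for 2906 of 10970. The lowest adjusted p in limma among the 12 was that of the adenylyl cyclase gene Adcy9 (0.152).

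Relatives of the factors moved in both directions. Of 14 tested Sox, Gata, Zfpm, Dmrt and gonadotropin receptor relatives, 3 fell, 1 rose and 10 were not called (median -0.21). The 1 that rose, Sox3, is also counted above among the testis-determining and Amh-regulating genes. Sox2, a pluripotency factor, read 3.51 and 4.24 with WIN 18,446 against 8.14 and 6.998 with vehicle (difference -3.69, SE 0.47, adjusted p = 0.0253 in limma). It passed the level filter through the vehicle arrays alone, since both WIN 18,446 levels lay under 5, so its place among the genes called rests on that group. Sox6 read 6.85 and 7.77 with WIN 18,446 against 9.51 and 9.27 with vehicle (difference -2.08, adjusted p = 0.0376). Of its other 2 tested probe sets limma called 1 lower (adjusted p = 0.0298) and did not call 1 (difference -0.91, adjusted p = 0.160). The one called read 4.73 and 4.99 with WIN 18,446 against 6.69 and 6.44 with vehicle. Like Sox2, it passed the level filter through the vehicle arrays alone. Sox13, of the same SoxD subgroup as Sox6, fell as well (difference -1.01, adjusted p = 0.0478). Gata3 and Gata5 lay at background on every array.

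**Figure D4:**
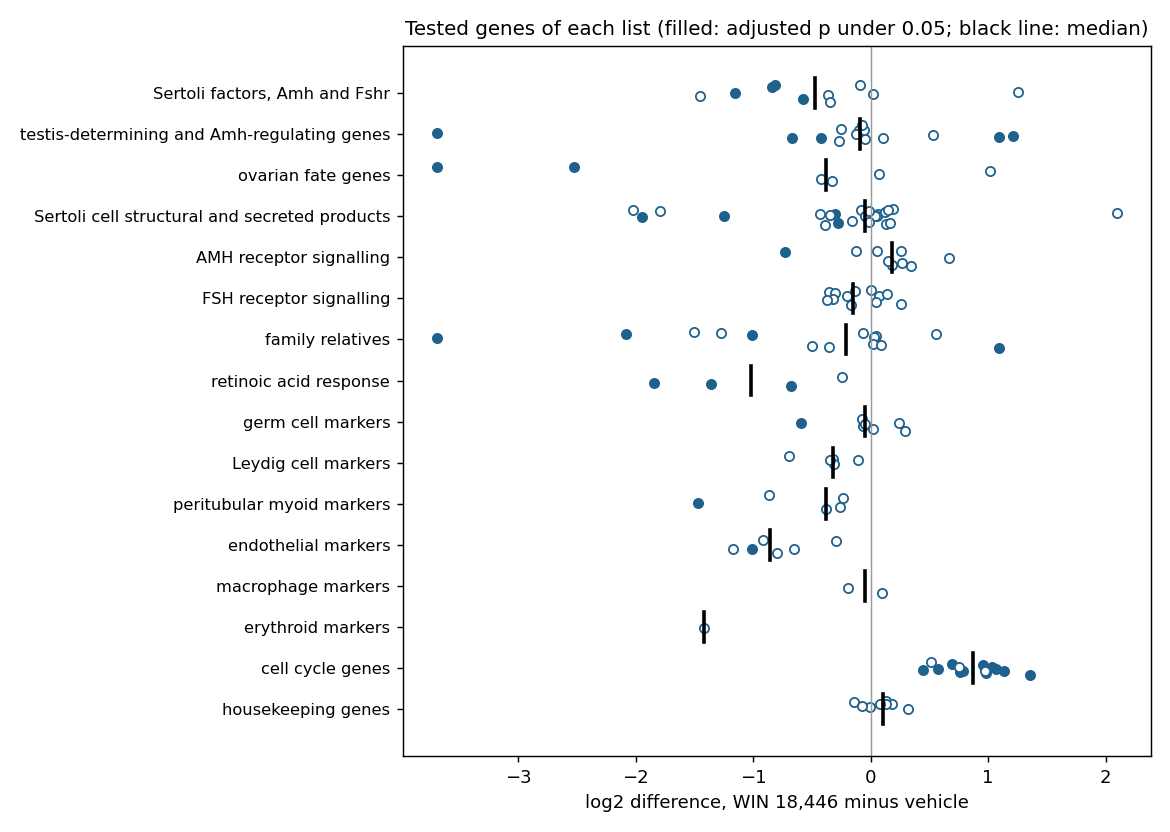
Log2 difference, WIN 18,446 minus vehicle, of the tested genes of each list, 1 point per gene by its brightest probe set; filled points have an adjusted p under 0.05 and black lines are medians. The Sertoli factors, Amh and Fshr have a median of -0.47, the cell cycle genes lie above 0 and the endothelial markers below it.

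Cell cycle genes, which dividing cells of any type express, rose on the same arrays. In each list of markers of another cell type, with 1 to 7 tested genes, limma called 0 or 1 gene. With so few genes, 1 call is already a larger share of its list than the 6.4% called of all tested genes. Of 14 tested cell cycle genes 11 rose, 0 fell and 3 were not called (median 0.87), and their summed linear level was 104439 and 112177 with WIN 18,446 against 61080 and 70954 with vehicle. Of 6 tested endothelial markers Robo4 fell and 5 were not called (median -0.86). The summed level of the 9 on the array was 1562 and 1464 with WIN 18,446 against 2401 and 2785 with vehicle. Of 5 Leydig cell markers 0 were called (median -0.32, lowest adjusted p = 0.088 in limma). An unadjusted p under 0.05 in limma was found for 3 of these 5 genes, and for 2906 of 10970 in the fit with 1 probe set per gene. The sum over these 5 markers was 35011 and 30654 with WIN 18,446 against 44334 and 37594 with vehicle. Of 5 tested peritubular myoid markers Des fell and 4 were not called (median -0.38), with a sum over 7 of 19490 and 19646 with WIN 18,446 against 23420 and 23416 with vehicle. Linear sums weigh bright genes most: Acta2 made up most of the myoid sum and Hsd3b1 the largest part of the Leydig sum. All tested endothelial (6), Leydig (5) and myoid (5) markers had a negative difference, as had 54.8% of all tested genes and 4 of 7 germ cell markers. Without overlap 6, 4 and 4 of them were lower, against 29.3% of all tested probe sets.

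Of 7 tested germ cell markers Sall4 fell and 6 were not called (median -0.05), with a sum over 9 of 33177 and 33570 with WIN 18,446 against 37048 and 35078 with vehicle. Without Sall4 the sum over the other 8 was 25370 and 25767 with WIN 18,446 against 25051 and 23471 with vehicle. Dazl and Ddx4, which encode RNA-binding proteins of germ cells, read higher without overlap and were not called (differences 0.29 and 0.24, adjusted p = 0.113 and 0.230). Of 9 macrophage markers 2 were tested and 0 called by limma (0 at an unadjusted p under 0.05), and 3, among them C1qa and Fcgr1, lay at background on all arrays. The sum over the 9, of which C1qb made up the largest part, was 298 and 528 with WIN 18,446 against 354 and 558 with vehicle. Of 4 tested genes of the retinoic acid response, Dhrs3, Stra6 and Rarres1 fell and Cyp26b1 was not called (median -1.02). Of 8 tested housekeeping genes limma called 0 by the brightest probe set (median 0.10). An unadjusted p under 0.05 in limma was found for 2 of these 8 genes, and for 2906 of 10970 in the fit with 1 probe set per gene. Over all 22 tested probe sets of the housekeeping genes limma called 2, both higher and both of the glycolytic gene Pgk1 (differences 0.74 and 0.52, adjusted p = 0.0158 and 0.0288). The brightest Pgk1 probe set had a difference of 0.32 (adjusted p = 0.130). The part of these markers in the Sertoli factor differences was not tested.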

How the data were processed

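Deposited values are log2 levels, 1 per probe set and array, which the authors had normalized between arrays; RMA and GCRMA both stand in the submitters' processing notes, and which of them was used is not given in the sources used here. The 2 arrays per group limit the precision. Of 45101 probe sets, 64 controls were left out, and those with a mean of at least 5 were tested (46.4% of 45037). All 10 genes matched the RefSeq gene table by gene ID. The fit was limma 3.58.1 in R 4.3.3 (lmFit, eBayes with a variance trend, two-sided, Benjamini-Hochberg over all tested probe sets, 2 residual and 3.19 prior degrees of freedom), and was tested on simulated data. At background means at or below 2.22, the highest bacterial control, on all arrays. The genes, lists and tests were chosen with earlier results of these data known. Named are all probe sets of the 10 genes, up to 4 genes per list by smallest p (up to 6 where more were called), the 3 nearest profiles to Sox9 and to Amh, and Stra8, Stra6 and Dhrs3. Clu, Hsd17b1, Tsx, Rhox5, Gja1, Nr5a1, Sry, Sox10, Foxl2, Gata3, Gata5, Hba-a1, Alas2, C1qa, C1qb and Fcgr1 were chosen after their values were seen, as were second probe sets. Gapdh is not given, since outside the control probe sets it has none with a single symbol. Alternatives were each array left out, other level filters, robust moderation, equal array medians, 1 probe set per gene, a block for the replicate number, a repeated quantile normalization, and eBayes without the trend. Deviations of same-numbered arrays correlated at 0.014, with 2 pairs.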

Additional observations from a re-analysis of the deposited data

How the results depend on the processing

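Over the whole array limma called 3 probe sets without the level filter (0 higher and 3 lower), 372 with the variance trend left out (127 and 245), and 0 to 1398 when 1 array was left out (0 to 480 higher and 0 to 918 lower). Leaving out either vehicle array gave 0 (unadjusted p under 0.05: 2455 probe sets without vehicle array 1 and 2820 without vehicle array 2), and 664 were called without WIN 18,446 array 1. Of the 13 probe sets of the Sertoli cell genes, limma called 0 without the level filter, 1 without a variance trend and 0 to 5 when 1 array was left out. The cause of these losses was not tested. Over all pairs of a probe set and another setting, 133 kept direction and side of the threshold, 23 lost the call, 9 gained it and 1 turned round: the brighter Gata4 probe set, 0.02 in the report, was -0.015 with array medians set equal. Of the 9 gained calls 7 are those of Amh, and the others are Gata1 without WIN 18,446 array 1 and the dimmer Gata6 probe set without WIN 18,446 array 2 (adjusted p = 0.0305). With the replicate number as a block (replicate block) limma called 1467 probe sets and 6 of the 13, Amh included (adjusted p = 0.0397); the numbers are not known to pair the samples, and their deviations correlated at 0.014.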
